A study of Mus musculus with 6 samples.

Results

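The 82 genes described here encode the subunits of potassium channels and the auxiliary proteins that bind them. They were all rows of a deposited table of 16729 mouse genes whose symbol is Kcn followed by letters and an optional number, a rule on the symbol that uses no measured value. RefSeq holds 93 mouse genes with such a symbol. The other 11, Kcna7, Kcna10, Kcne1, Kcne3, Kcnj1, Kcnk7, Kcnk15, Kcnk16, Kcnk18, Kcnmb3 and Kcnv2, were not analysed here. Antisense and imprinted transcripts whose symbols begin the same way, such as Kcnq1ot1 and Kcnmb4os1, were outside the pattern.

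Bulk RNA-seq was performed on tumors that grew from mG7080 cells in the brains of C57BL/6 mice, either Esm1 WT or Esm1 KO, with 3 libraries from each. The mG7080 line is a mouse gliomasphere culture from a mouse model of glioblastoma, and all 6 hosts received this same line. Esm1 encodes Endocan, a proteoglycan that endothelial cells secrete. Only the host carried the deletion, and RNA came from whole tumor tissue. In consequence, each library mixes RNA of tumor cells with that of neurons, glia, vessels and immune cells of the host. In such tissue, fewer cells of a type cannot be told apart from less RNA per cell. WT hosts were purchased and KO hosts came as a gift, so that genotype and colony cannot be told apart, and the methods and reporting summary of the study give different host ages. Nothing in the labels names a litter or a batch, and p-values measure the spread between these libraries.

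A potassium channel lets potassium leave or enter a cell along its gradient and so sets the resting potential and ends the action potential. Voltage-gated channels (Kv) are tetramers of pore subunits, calcium- and sodium-activated channels open with those ions, inward rectifiers (Kir) hold the resting potential, and two-pore-domain channels carry leak currents. In the brain, most voltage-gated subunits are known from neurons, whereas Kcnj10 and Kcnj16 are typical of astrocytes. Kcnn4, Kcnk13 and Kcna3 are known from microglia, macrophages and lymphocytes, and Kcnj8 from mural cells of vessels. In glioma, Kcnn4 and Kcnma1 are also known from the tumor cells themselves.

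Before the channel genes are compared, the labels need a check. Esm1 was measured at 1.19, 1.09 and 4.05 CPM (read counts scaled to the library total, adjusted with the TMM factors of edgeR over all 6 libraries) in WT 1, WT 2 and WT 3. It was at 0.0570 CPM in KO 1 and 0.208 CPM in KO 3, but at 1.07 CPM in the library labelled KO 2, close to WT 1 and WT 2. The label of that library is therefore in doubt, although the injected cells carry the gene too. Each result is given for all 6 libraries and for WT 1, WT 2, KO 1 and KO 3, which are the 4 libraries of the study's own table, and where it matters for the 5 libraries without the one labelled KO 2. These comparisons share libraries and are not independent of each other. Libraries held 17632070 to 22241832 reads assigned to genes, and 1 read was worth 0.0445 to 0.0570 CPM. Counting error alone is covered by this precision. No Kcn gene was at 0 in any library.

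Levels of different genes were compared only per length, on the deposited FPKM. The median Kcn gene had a mean of 4.86 FPKM over the 6 libraries, against 9.73 FPKM for the median gene of the table, and 12 of the 82 were under 1 FPKM. Kcnab2, a beta subunit of Shaker channels, had the highest mean (68.3 FPKM). Other abundant members were Kcnj10, the astrocytic channel Kir4.1 (55.9 FPKM), and Kcnip3 and Kcnip2, which are calcium-binding subunits of A-type channels (47.0 and 43.4 FPKM). The lowest was Kcnj15 (0.0623 FPKM). Auxiliary subunits made up 25.9% to 29.4% of the summed FPKM of the family in each library, and inward rectifiers 16.4% to 20.5%.

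The family as a whole was most abundant in KO 1 and KO 3. In WT 1, WT 2 and WT 3 its summed level was 3374, 1626 and 2238 CPM, and in KO 1, the library labelled KO 2 and KO 3 it was 6192, 2748 and 6552 CPM. KO 1 and KO 3 were thus above every WT library and the library labelled KO 2 lay between WT 3 and WT 1. With all 6 libraries, 0 of 79 tested genes passed edgeR's quasi-likelihood test at an adjusted p under 0.05, as did 0% of all genes tested, and the smallest adjusted p was 0.184. At an unadjusted p under 0.05, 35 were higher and 2 lower in KO hosts, against 15.2% and 11.9% of all genes. DESeq2 called 10 of the 79 higher and 0 lower (4.68% and 2.63% of all genes), whereas edgeR's exact test and limma-voom called 0. The direction was uneven: 69 of 79 log2 fold changes (KO over WT) were above 0, against 48.7% of all genes, with a median of 1.21 against -0.02 for all genes.

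Over WT 1, WT 2, KO 1 and KO 3, 8 of 80 tested Kcn genes passed. Of these, 5 rose in KO hosts, among them Kcng3, Kcng2, Kcnt1 and Kcnmb4, and Kcne4, Kcnk5 and Kcnn4 fell, where 2.87% of all tested genes were called higher and 13.9% lower. At a fold above 4 besides, Kcng3 remained as 1 higher and Kcnn4 as 1 lower gene (0.451% and 6.23% of all genes). Positive log2 fold changes numbered 69 of 80, against 49.0% of all genes, with a median of 1.41 against -0.03 for all genes. At an unadjusted p under 0.05, 46 genes were higher and 4 lower (19.9% and 26.2% of all genes). Other tests on the same 4 libraries gave more upward calls: DESeq2 called 50 higher and 4 lower (16.6% and 19.5% of all genes), edgeR's exact test 46 and 4 (16.0% and 22.1%), and limma-voom 9 and 3 (2.94% and 12.4%). Leaving out KO 1 kept 2 of the 8 calls (Kcnmb4 and Kcnn4), leaving out KO 3 kept 0, and leaving out WT 2 kept 6, with Kcnk5 and Kcnn4 lost. The median log2 fold change of the Kcn genes was 2.16 without WT 1 and 0.92 without WT 2. In these fits the single library left in a group is assumed to vary like the other group, and no share of all genes called is given for them. Without the library labelled KO 2, in turn, the 5 libraries gave 54 higher and 4 lower of 80 (24.5% and 28.3% of all genes), with all 8 among them and a median of 1.55.

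The position of the libraries shows the same uneven picture without a fit. In 65 of the 82 genes both KO 1 and KO 3 lay above all 3 WT libraries, against 37.3% of all genes, and in 5 genes both lay below them, against 39.7%. Of these 65 genes, the library labelled KO 2 fell inside the WT range in 54, above it in 10 and below it in 1 (Kcnd2). All 3 KO libraries lay above all 3 WT libraries in 10 genes (13.3% of all genes do so) and below in 3, Kcnn4, Kcnk5 and Kcne2 (14.3% of all genes). Kcne2 did not pass the filter on low counts, and outside WT 1 its position rests on very few reads. The WT libraries were ordered too. WT 1 was the highest WT library in 71 genes, which is 86.6% of the family against 41.7% of all genes, and WT 2 was the lowest in 62 (75.6% against 36.6%).

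**Figure D1:**
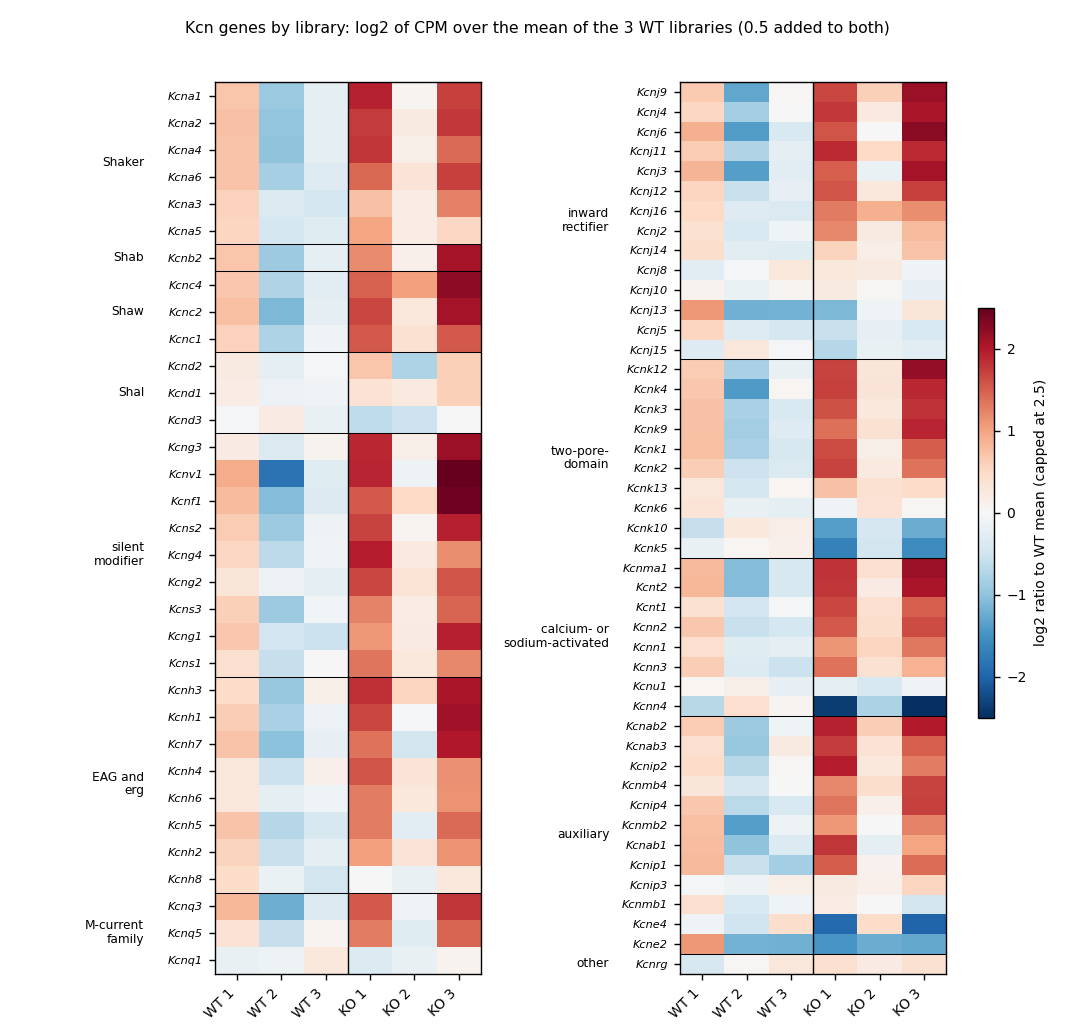
Heat map of Kcn genes (rows, by role) in the 6 libraries (columns); color is the log2 ratio of CPM to the mean of the 3 WT libraries, with 0.5 CPM added to both, capped at 2.5 in either direction. Most rows are red in KO 1 and KO 3, pale in the library labelled KO 2, and ordered WT 1 over WT 2 on the WT side, while Kcnn4, Kcnk5, Kcnk10 and Kcne4 are blue in KO 1 and KO 3.

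Neuron and myelin markers were highest in the same libraries as the family, KO 1 and KO 3. The summed level of 10 neuron markers was 5123, 1688 and 3081 CPM in the 3 WT libraries, and KO 1, the library labelled KO 2 and KO 3 had 11637, 4380 and 14260 CPM, in the same order of libraries as the family within each group. Myelin markers gave 3347, 1321 and 1890 CPM in WT hosts and 7489, 3212 and 3860 CPM in KO hosts. The opposite held for 8 markers of proliferating cells, at 1079, 1930 and 1864 CPM in WT hosts against 97.5, 1188 and 16.7 CPM in KO hosts. No marker was at 0 in any library. Fold changes of the 10 neuron markers ran from 0.84 to 2.43 on the log2 scale over the 4 libraries, and 58 of 80 Kcn genes lay inside that range, 21 below it and 1, Kcng3, above it. With all 6 libraries the neuron range was 0.79 to 1.98, with 58 of 79 Kcn genes inside. In each comparison, 10 of the Kcn genes below the range were still above 0. The share of all genes inside these wide ranges is not given. The part of cell makeup in the differences of single channel genes was not tested.

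**Figure D2:**
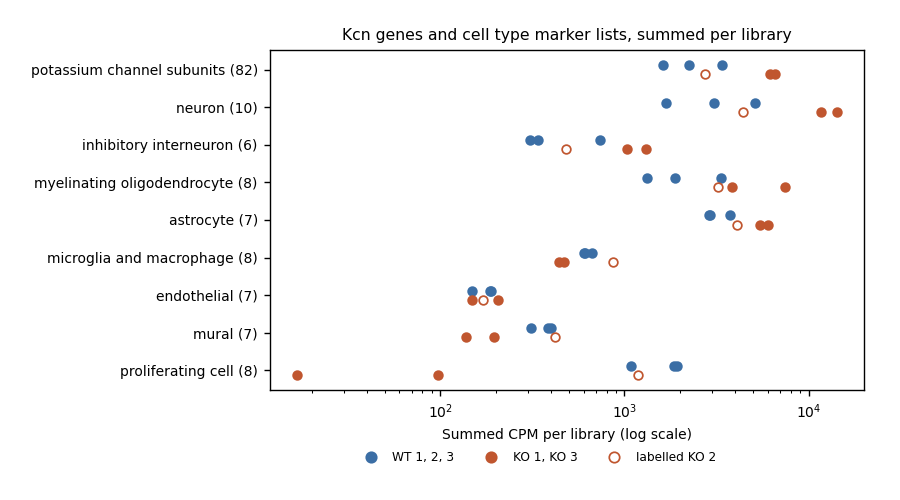
Summed CPM per library (log axis) of the 82 Kcn genes and of the cell type marker lists, with the number of genes in parentheses; blue points are WT libraries, filled orange points KO 1 and KO 3, and open points the library labelled KO 2. Kcn, neuron and myelin sums are highest in KO 1 and KO 3, where the sums of proliferation and mural markers are lowest. Single mural markers differed in direction, and Cspg4 is the largest of them in every WT library.

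Sequence before the start of transcription was available for 59 of the 82 genes, as 83 promoters of RefSeq (GRCm38.p6, the same assembly as mm10, which the labels name). The motif GGGCGG (a GC box), on either strand, stood in the 250 bases before the start of 38 of these 83 promoters, which is 45.8% against 32.7% of all 32851 promoters. TATAAA stood in 3.61% against 12.4%, and GGACAGC, a part of the RE1 element that the neuronal repressor REST reads, in 9.64% against 5.28%. CAGCACC, the other part of RE1, stood in 7.23% against 5.73%, CACGTG (an E-box) in 7.23% against 6.02% and TGACTCA (an AP-1 site) in 2.41% against 4.46%. Each was read on both strands, and no motif contains another. These are matches of letters, not sites shown to be bound. The 100 bases before the start are printed for those genes called over the 4 libraries whose window lies outside every RefSeq transcript of the gene, Kcne4 (chr1:78816811-78816910, plus strand) and Kcnk5 (chr14:20181783-20181882, minus strand), both of which fell. Capitals mark the searched motifs.
Kcne4: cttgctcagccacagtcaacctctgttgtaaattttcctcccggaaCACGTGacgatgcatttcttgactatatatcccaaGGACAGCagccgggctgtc
Kcnk5: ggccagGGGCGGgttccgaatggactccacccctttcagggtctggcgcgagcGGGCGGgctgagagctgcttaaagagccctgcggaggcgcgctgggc
The window of Kcne4 holds CACGTG and GGACAGC and no GC box, with 7 CG pairs in 250 bases, near the median of 6 over all promoters. Kcnk5 has 3 GC boxes and 19 CG pairs in its 250 bases. Among those that rose, the windows of Kcng3 and Kcnmb4 each hold 4 GC boxes, with 41 and 43 CG pairs. The window of Kcnn4, which fell, holds 1 GC box and 6 CG pairs. Unlike those of Kcne4 and Kcnk5, the 100 bases before the start of Kcng3, Kcnmb4 and Kcnn4 lie inside the RefSeq span of the gene. Their counts thus include bases of the gene itself.

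Shaker subunits (Kcna) form channels of axons and terminals. All 6 log2 fold changes were above 0, from 0.64 to 1.44 with all 6 libraries and from 0.69 to 1.73 with 4, and 0 passed in either. Kcna2, the most abundant per length, was at 206, 62.3 and 104 CPM in WT hosts and at 418, 146 and 425 CPM in KO hosts (always in the order WT 1, WT 2 and WT 3, then KO 1, the library labelled KO 2 and KO 3). KO 1 and KO 3 were above WT 1, the highest WT library, and the one labelled KO 2 was inside the WT range. The log2 fold change was 1.40 (SE 0.58, adjusted p = 0.184) with all 6 and 1.64 (SE 0.58, adjusted p = 0.0898) with 4 libraries. Kcna3, which is also known from lymphocytes and microglia, was at 10.1, 5.01 and 4.79 CPM in WT hosts and 11.4, 7.61 and 16.6 CPM in KO hosts, with log2 fold changes of 0.83 (SE 0.42, adjusted p = 0.213) and 0.88 (SE 0.43, adjusted p = 0.161). WT 1 (10.1 CPM) nearly reached KO 1 (11.4 CPM), and microglia and macrophage markers summed to 668, 606 and 608 CPM in WT hosts and 469, 865 and 438 CPM in KO hosts.

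Shab subunits (Kcnb) carry the delayed rectifier of the neuronal cell body. Kcnb2 had 7.57, 2.17 and 3.75 CPM in WT hosts and 10.8, 4.94 and 20.6 CPM in KO hosts. Again KO 1 and KO 3 were above all others, at log2 fold changes of 1.42 (SE 0.66, adjusted p = 0.194) with 6 and 1.68 (SE 0.66, adjusted p = 0.110) with 4 libraries.

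Shaw subunits (Kcnc) let neurons fire at high rates. All 4 genes had an unadjusted p under 0.05 with all 6 libraries. Kcnc4 was at 36.4, 13.3 and 18.5 CPM in WT hosts and 64.3, 46.5 and 109 CPM in KO hosts, so that the groups did not overlap even with the library labelled KO 2. It had log2 fold changes of 1.68 (SE 0.47, adjusted p = 0.184) and 1.80 (SE 0.54, adjusted p = 0.0687). Kcnc1, the most abundant Shaw gene per length, had 140.4, 55.1 and 87.0 CPM in WT hosts and 275, 122 and 274 CPM in KO hosts.

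Shal subunits (Kcnd), the pores of the A-type current of dendrites, had log2 fold changes of -0.38 to 0.42 with 6 and -0.39 to 0.62 with 4 libraries. Their sum was 217, 211 and 188 CPM in WT hosts and 214, 137 and 248 CPM in KO hosts, with no separation of the groups. Kcnd2 was at 93.2, 67.9 and 77.0 CPM in WT hosts and 129, 46.4 and 120.0 CPM in KO hosts, so that the library labelled KO 2 was the lowest of all 6. Its log2 fold change was 0.30 (SE 0.39, adjusted p = 0.572) with 6 and 0.62 (SE 0.22, adjusted p = 0.0910) with 4 libraries. Kcnd3 had 118, 139 and 106 CPM in WT hosts and 77.9, 84.4 and 119.6 CPM in KO hosts, which overlap, with log2 fold changes of -0.38 (SE 0.22, adjusted p = 0.244) and -0.39 (SE 0.27, adjusted p = 0.291). It shares 165 exonic bases with the antisense gene Kcnd3os. As a share of the summed FPKM of the family, the Shal genes made up 4.63%, 8.92% and 5.96% in WT hosts and 2.68%, 3.51% and 2.77% in KO hosts.

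The silent modifier subunits (Kcnf, Kcng, Kcns and Kcnv) form no channel alone but join Shab subunits and change their gating. All 9 log2 fold changes were above 0, with a median of 1.46 for 6 and 1.74 for 4 libraries, and in all 9 genes KO 1 and KO 3 lay above every WT library. Kcng3 (chromosome 17, 83574023 to 83631995) had the largest upward fold change of the family in both comparisons, from a low level. Its reads numbered 21, 10 and 18 in the WT libraries and 76, 21 and 101 in KO 1, the library labelled KO 2 and KO 3, which are 0.999, 0.517 and 0.888 CPM and 4.34, 0.935 and 5.26 CPM. The log2 fold change was 2.10 (SE 0.68, adjusted p = 0.184) with 6, 2.64 (SE 0.46, adjusted p = 0.0347) with 4 and 2.57 (SE 0.36, adjusted p = 0.00803) with 5 libraries. Kcng2 was at 2.62, 1.81 and 1.68 CPM in WT hosts and 7.53, 2.72 and 7.03 CPM in KO hosts, and the library labelled KO 2 lay just above WT 1. Its log2 fold change was 1.48 (SE 0.45, adjusted p = 0.184), 1.70 (SE 0.35, adjusted p = 0.0416) and 1.84 (SE 0.29, adjusted p = 0.00938) in the same order. Kcnv1 spread widely, at 52.4, 7.18 and 21.8 CPM in WT hosts and 102, 24.9 and 164 CPM in KO hosts, and its log2 fold change of 2.15 (SE 0.90, adjusted p = 0.122) with 4 libraries did not pass. Kcnf1 at 1.91 (SE 0.67, adjusted p = 0.0893), Kcns2 at 1.79 (SE 0.53, adjusted p = 0.0677) and Kcng1 at 1.41 (SE 0.52, adjusted p = 0.0972) did not pass either.

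EAG and erg subunits (Kcnh) include Kcnh2, known from repolarization of the heart, and Kcnh3, an ELK channel of forebrain neurons. Of the 8 genes, 7 had KO 1 and KO 3 above every WT library, and 0 passed in either comparison. Kcnh3 was at 67.6, 25.2 and 54.3 CPM in WT hosts and 176, 71.5 and 204 CPM in KO hosts, without overlap of the groups. It missed the threshold narrowly over the 4 libraries, with log2 fold changes of 1.61 (SE 0.51, adjusted p = 0.184) for 6 and 2.02 (SE 0.49, adjusted p = 0.0501) for 4. Kcnh8 was low (0.247 to 0.904 CPM) and did not pass the filter on low counts with all 6 libraries.

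In the M-current family (Kcnq), which restrains repetitive firing, 0 of 5 genes passed in either comparison. Kcnq5 was at 72.2, 37.4 and 59.1 CPM in WT hosts and 136, 45.4 and 156 CPM in KO hosts, with log2 fold changes of 0.99 (SE 0.49, adjusted p = 0.205) and 1.41 (SE 0.35, adjusted p = 0.0518). Kcnq3 was at 27.8, 6.36 and 11.9 CPM in WT hosts and 45.5, 14.4 and 54.6 CPM in KO hosts, and in both genes KO 1 and KO 3 lay above every WT library. Kcnq1, known from heart and epithelia, was at 1.76, 1.86 and 2.61 CPM in WT hosts and 1.54, 1.78 and 2.24 CPM in KO hosts, and the groups overlapped.

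**Figure D3:**
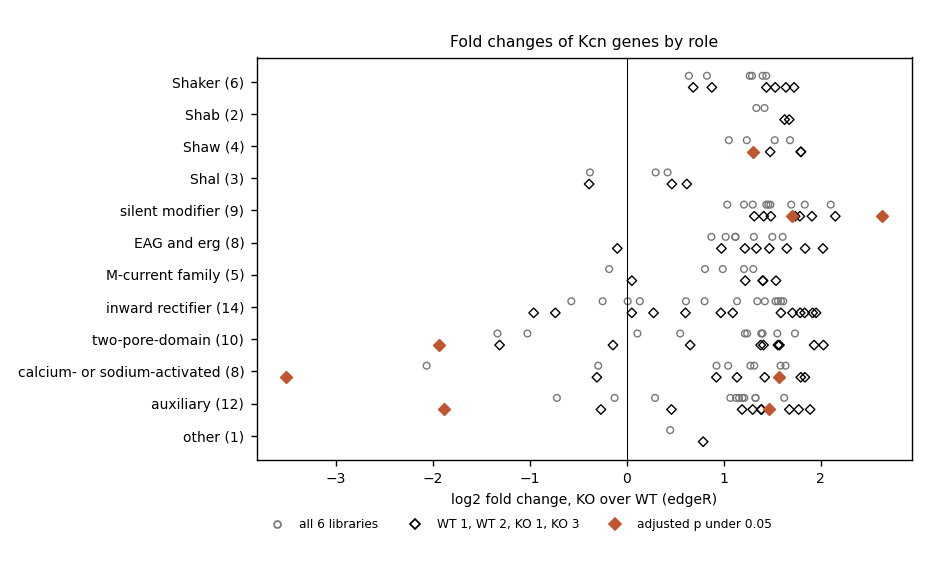
Log2 fold change (KO over WT) of each tested Kcn gene by role, with the number of genes in parentheses; circles are the fit of all 6 libraries, diamonds that of WT 1, WT 2, KO 1 and KO 3, and filled diamonds have an adjusted p under 0.05. Values cluster between 1 and 2 in most groups, Shal genes lie nearer 0, and the 3 genes that fell, Kcnn4, Kcnk5 and Kcne4, belong to the calcium-activated, two-pore-domain and auxiliary groups.

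Inward rectifiers (Kcnj) include channels of neurons, astrocytes and vessels. Of 13 tested genes 0 passed, and log2 fold changes ran from -0.57 to 1.62 with 6 and from -0.96 to 1.95 with 4 libraries. The G-protein-coupled channels of neurons, Kcnj3, Kcnj6 and Kcnj9, and the pore of the ATP-sensitive channel, Kcnj11, lay at the upper end. Kcnj4, which belongs to neither kind, lay there too, with log2 fold changes of 1.54 with 6 and 1.92 with 4 libraries. Kcnj9, for example, was at 70.4, 17.7 and 45.2 CPM in WT hosts and 142, 67.2 and 201 CPM in KO hosts. Kcnj10 (chromosome 1, 172341210 to 172374085), with which astrocytes clear potassium, was at 315, 265 and 315 CPM in WT hosts and 348, 306 and 257 CPM in KO hosts, fully overlapping. The log2 fold change was 0.01 (SE 0.18, adjusted p = 0.971) with 6 and 0.05 (SE 0.28, adjusted p = 0.890) with 4 libraries, and leaving out KO 1 or WT 2 turned its sign. On the deposited FPKM, which are not scaled with TMM factors, Kcnj10 was at 59.8, 53.8 and 62.3 in WT hosts and 58.7, 59.6 and 41.1 in KO hosts. Within the family it made up 6.72%, 11.9% and 10.1% of the summed FPKM in WT hosts and 4.02%, 7.82% and 2.77% in KO hosts. Kcnj16, the partner of Kcnj10 in astrocytes (Kir5.1), was instead higher in every KO library, at 21.9, 12.2 and 11.9 CPM in WT hosts and 38.3, 28.8 and 35.0 CPM in KO hosts. Its log2 fold change was 1.14 (SE 0.28, adjusted p = 0.184) with 6, the smallest unadjusted p of the family (0.00656), and 1.09 (SE 0.32, adjusted p = 0.0664) with 4 libraries, neither past the adjusted threshold. DESeq2 called it in both comparisons (adjusted p = 0.0206 and 0.0180). The 7 astrocyte markers did not move as 1 list either. Gfap was at 1092, 1143 and 1116 CPM in WT hosts and 247, 823 and 224 CPM in KO hosts, whereas Slc1a2 was at 1376, 552 and 814 CPM and 4143, 1937 and 3755 CPM, and the list summed to 3728, 2895 and 2916 CPM in WT hosts and 6010, 4064 and 5434 CPM in KO hosts.

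Kcnj8, the pore of the ATP-sensitive channel of mural cells, was at 3.09, 3.77 and 4.83 CPM in WT hosts and 4.79, 4.63 and 3.59 CPM in KO hosts, with log2 fold changes of 0.13 (SE 0.28, adjusted p = 0.722) and 0.28 (SE 0.35, adjusted p = 0.559). Its groups overlapped. The sums of 7 mural markers overlapped too, at 309, 399 and 384 CPM in WT hosts and 195, 418 and 138 CPM in KO hosts. Cspg4, the largest of them in every WT library, was at 194, 241 and 212 CPM in WT hosts and 46.1, 303 and 28.5 CPM in KO hosts. Single mural markers differed in direction. Kcnj2, of endothelium and many other cells, was at 18.2, 10.5 and 12.7 CPM in WT hosts and 32.6, 16.3 and 24.1 CPM in KO hosts. Endothelial markers summed to 148, 188 and 186 CPM in WT hosts and 205, 171 and 150 CPM in KO hosts, without separation.

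Of the 10 two-pore-domain genes (Kcnk), 7 had KO 1 and KO 3 above every WT library and 2, Kcnk5 and Kcnk10, had both below. Kcnk1 (TWIK-1), the most abundant per length, was at 56.7, 19.0 and 25.2 CPM in WT hosts and 105, 37.5 and 97.6 CPM in KO hosts. Kcnk5 (TASK-2, chromosome 14, 20140057 to 20181782), an acid-sensitive leak channel known from epithelia, was at 3.95, 4.75 and 5.03 CPM in WT hosts and 1.08, 3.21 and 1.20 CPM in KO hosts. The groups did not overlap, and the library labelled KO 2 lay between WT 1 and the other KO libraries. The log2 fold change was -1.33 (SE 0.48, adjusted p = 0.184) with 6, -1.94 (SE 0.37, adjusted p = 0.0374) with 4 and -1.99 (SE 0.29, adjusted p = 0.00835) with 5 libraries. Kcnk10 (TREK-2), a stretch-sensitive channel, was at 8.14, 14.9 and 13.9 CPM in WT hosts and 4.45, 9.04 and 4.89 CPM in KO hosts, at log2 fold changes of -1.02 (SE 0.39, adjusted p = 0.184), -1.31 (SE 0.39, adjusted p = 0.0694) and -1.39 (SE 0.33, adjusted p = 0.0193), of which only the last passed. Its close relative Kcnk2 (TREK-1) was higher in KO 1 and KO 3, with 47.0, 21.2 and 23.7 CPM in WT hosts and 99.4, 36.6 and 79.4 CPM in KO hosts. Kcnk13 (THIK-1), known from microglia, was at 8.52, 4.96 and 7.10 CPM in WT hosts and 11.7, 9.08 and 9.68 CPM in KO hosts, a narrow separation with log2 fold changes of 0.55 (SE 0.26, adjusted p = 0.197) and 0.65 (SE 0.36, adjusted p = 0.206).

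Among the calcium- and sodium-activated channels, Kcnt1 (Slack, chromosome 2, 25863791 to 25918273), a sodium-activated channel of neurons, was at 96.6, 53.0 and 73.3 CPM in WT hosts and 236, 98.0 and 210.1 CPM in KO hosts. The library labelled KO 2 was level with WT 1 to within 2 CPM. Its log2 fold change was 1.28 (SE 0.38, adjusted p = 0.184), 1.57 (SE 0.34, adjusted p = 0.0432) and 1.59 (SE 0.26, adjusted p = 0.00985) with 6, 4 and 5 libraries. Kcnma1, the pore of the BK channel, had 64.2, 16.8 and 27.5 CPM in WT hosts and 128, 47.8 and 164 CPM in KO hosts, at 1.64 (SE 0.63, adjusted p = 0.184) and 1.84 (SE 0.63, adjusted p = 0.0842). The small-conductance channels Kcnn1, Kcnn2 and Kcnn3 had KO 1 and KO 3 above every WT library as well. Kcnn2 was at 18.3, 7.49 and 8.24 CPM in WT hosts and 33.5, 15.6 and 36.1 CPM in KO hosts. The fourth gene of the same subfamily showed the reverse. Kcnn4 (chromosome 7, 24369826 to 24385212), the intermediate-conductance channel, was read 89, 187 and 152 times in the WT libraries and 17, 88 and 5 times in KO 1, the library labelled KO 2 and KO 3. In CPM these are 4.23, 9.66 and 7.50 and 0.970, 3.92 and 0.260, so that the groups did not overlap but the library labelled KO 2 came close to WT 1. The log2 fold change, the largest downward one of the family, was -2.06 (SE 0.91, adjusted p = 0.188) with 6, -3.51 (SE 0.76, adjusted p = 0.0441) with 4 and -3.54 (SE 0.66, adjusted p = 0.0118) with 5 libraries. KO 3, with the fewest proliferation markers, was also lowest in Kcnn4, and WT 2, with the most, was highest, and the part of proliferating cells in this was not tested. Kcnu1, known from sperm, was at 4.57, 4.91 and 3.75 CPM in WT hosts and 3.65, 3.21 and 4.06 CPM in KO hosts, with -0.31 (SE 0.31, adjusted p = 0.464) over 4 libraries.

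**Figure D4:**
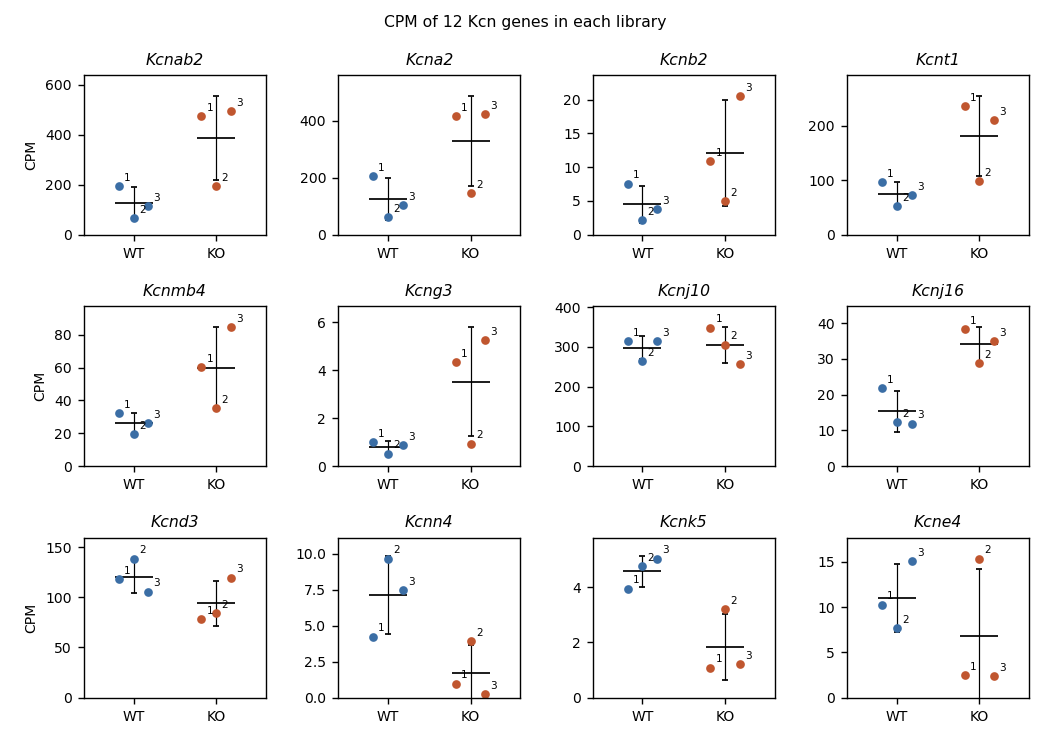
CPM of 12 Kcn genes in each library (linear axes from 0; numbers are the replicate numbers of the labels); black bars are the mean and SD of 3 libraries, cut at 0. Kcnab2, Kcna2 and Kcnb2 separate KO 1 and KO 3 from all other libraries, Kcnj10 and Kcnd3 overlap between groups, and Kcnn4, Kcnk5 and Kcne4 are lowest in KO 1 and KO 3, with Kcne4 highest in the library labelled KO 2.

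Auxiliary subunits bind the pores and set their trafficking and gating. Kcnab2 (chromosome 4, 152390744 to 152477549) was at 194, 66.4 and 115 CPM in WT hosts and 474, 193 and 496 CPM in KO hosts, where the library labelled KO 2 matched WT 1. Its log2 fold change was 1.62 (SE 0.51, adjusted p = 0.184) with 6 and 1.89 (SE 0.54, adjusted p = 0.0645) with 4 libraries. Kcnmb4 (chromosome 10, 116417861 to 116473859), the neuronal beta subunit of BK, rose over the 4 libraries. It was at 32.4, 19.4 and 26.3 CPM in WT hosts and 60.2, 35.4 and 84.5 CPM in KO hosts, without overlap, at log2 fold changes of 1.19 (SE 0.35, adjusted p = 0.184), 1.47 (SE 0.32, adjusted p = 0.0436) and 1.48 (SE 0.26, adjusted p = 0.0106) with 6, 4 and 5 libraries. Up to 355 of its exonic bases are shared with the antisense gene Kcnmb4os1 and 693 with Kcnmb4os2. Kcnmb4os1 itself was at 20.1, 11.7 and 17.4 CPM in WT hosts and 39.8, 20.9 and 56.1 CPM in KO hosts. Its log2 fold change was 1.23 (SE 0.40, adjusted p = 0.184) with 6 and 1.58 (SE 0.34, adjusted p = 0.0430) with 4 libraries. The part of antisense reads in the counts of Kcnmb4 was not tested. Kcnip3 (calsenilin) was at 113, 107 and 130.0 CPM in WT hosts and 136, 128 and 169 CPM in KO hosts, with 0.29 (SE 0.17, adjusted p = 0.244) and 0.46 (SE 0.20, adjusted p = 0.135). Kcnip2, by contrast, had 79.0, 35.3 and 58.9 CPM in WT hosts and 226, 69.9 and 142 CPM in KO hosts. Kcne4 (chromosome 1, 78816911 to 78820032), which inhibits Shaker channels such as Kcna3, was at 10.3, 7.70 and 15.1 CPM in WT hosts and 2.51, 15.4 and 2.39 CPM in KO hosts. Here the library labelled KO 2 was the highest of all 6, while KO 1 and KO 3 were below every WT library. The sums of mural and of microglia and macrophage markers were likewise highest in the library labelled KO 2 and lowest in KO 1 and KO 3. The WT libraries were ordered differently. Of the mural markers, only Cspg4 was itself highest in the library labelled KO 2, and it is also the largest part of the mural sum in every WT library. Within these lists, KO 1 and KO 3 lay below every WT library in 3 of 7 mural and 4 of 8 microglia and macrophage markers. Of all genes, 39.7% did so. KO 1 and KO 3 lay above every WT library in 2 of each list, against 37.3% of all genes. With lists this short, these counts do not set the markers apart from other genes. The part of these cells in the values of Kcne4 was not tested. The log2 fold change was -0.72 (SE 0.79, adjusted p = 0.502) with 6, -1.88 (SE 0.33, adjusted p = 0.0348) with 4 and -2.16 (SE 0.36, adjusted p = 0.0102) with 5 libraries. Kcnrg, a regulator that binds Shaker subunits, was at 0.666, 1.09 and 1.38 CPM in WT hosts and 1.54, 1.29 and 1.51 CPM in KO hosts. Kcne2 and Kcnj15 did not pass the filter on low counts in either comparison.

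Genes outside the family that work with these channels were read from lists of partners, HCN channels, and potassium pumps and cotransporters, of which 33 of 34 genes were in the table. With all 6 libraries 0 passed, and the median log2 fold change was 1.10. At an unadjusted p under 0.05, 15 were higher and 0 lower (15.2% and 11.9% of all tested genes), and DESeq2 called 3 higher (4.68% of all genes). Over the 4 libraries 0 rose and 2 fell, with a median of 1.26, where 2.87% of all genes were called higher and 13.9% lower. The 5 libraries without the one labelled KO 2 gave 24 higher and 2 lower (24.5% and 28.3% of all genes). Abcc8, the receptor that joins Kcnj11, was at 15.3, 4.75 and 10.8 CPM in WT hosts and 43.5, 17.4 and 38.1 CPM in KO hosts, whereas Abcc9, which joins Kcnj8, was at 9.33, 10.4 and 16.3 and 15.7, 14.0 and 8.54 CPM. KO 1 and KO 3 lay above every WT library for Abcc8, and the groups overlapped for Abcc9. Both genes that fell were potassium-chloride cotransporters of wide expression. Slc12a7 (KCC4) was at 43.3, 53.5 and 54.0 CPM in WT hosts and 10.5, 59.4 and 7.39 CPM in KO hosts, a log2 fold change of -2.45 (SE 0.27, adjusted p = 0.0343) over the 4 libraries and -0.99 (SE 0.79, adjusted p = 0.369) over 6. Slc12a4 (KCC1) was at 64.9, 89.2 and 86.9 and 28.3, 80.7 and 23.7 CPM, with -1.58 (SE 0.24, adjusted p = 0.0343) and -0.88 (SE 0.49, adjusted p = 0.238). In both, the library labelled KO 2 was level with the WT libraries. Slc12a5 (KCC2), the cotransporter of neurons, was the reverse at 423, 141 and 219.8 CPM in WT hosts and 779.6, 319 and 873 CPM in KO hosts, with 1.55 (SE 0.57, adjusted p = 0.0969) over the 4 libraries.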

How the data were processed

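RNA was sequenced from 6 tumors (3 WT and 3 Esm1 KO hosts). Per the labels, libraries were made with the NEBNext Ultra RNA kit and processed with CASAVA 1.8.2, edgeR and mm10, whereas the methods name the Ovation Ultralow kit, HTSeq on RefSeq genes and a human genome. The symbols of the table are those of mouse. Whether counting used strand is not given in the sources used here, and 24 members share exonic bases with an opposite-strand gene. The deposited counts are whole reads per gene, and the deposited FPKM were computed by the authors per gene and library. The authors' normalized counts, fold changes and p-values were not used. The table lists no gene whose largest count is under 5 or that was read in fewer than 4 libraries.

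The members and lists were chosen with earlier results of these data known. Counts were fitted over the whole table in R 4.3.3 with edgeR 4.0.16 (TMM factors, filterByExpr with a minimum count of 10 and a minimum total of 15, quasi-likelihood F test, Benjamini-Hochberg adjustment over all genes, threshold 0.05). In all, 79 members were tested over 6 and 80 over 4 libraries. SE was taken as the log2 fold change divided by the root of F. TMM scaling is relative, and the CPM of a library sum to 911238 to 1157994, highest in KO 1 and KO 3. Alternatives were RLE factors, other filters on low counts, each library left out, a replicate block, DESeq2 1.42.0, edgeR's exact test and limma-voom (limma 3.58.1). The fits were tested on simulated data in which all libraries varied alike. No simulated library stood apart as the one labelled KO 2 does, so that the simulation does not cover this case. Named genes were the members called or, where none was, the 3 with the smallest p per direction, the most abundant per length of each subfamily, members known from cells other than neurons, and the largest fold changes. Other members were named after their values were seen. Positions are from RefSeq (GRCm38), matched for 82 members (81 by gene ID). Figures were drawn with matplotlib 3.10.9 in Python 3.11.15, from tables made with numpy 2.4.6 and pandas 2.3.3. Some members are not reported here by name, though counts over the family include them.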

Additional observations from a re-analysis of the deposited data

How the results depend on the processing

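With all 6 libraries, the count of Kcn genes called stayed at 0 in both directions with RLE factors, without a filter on low counts, with a filter at a mean of 10 counts, with a fold above 4, with edgeR's exact test and with limma-voom. DESeq2 called 10 higher. Leaving out each library gave 0 to 54 higher and 0 to 4 lower, where 54 and 4 came without the library labelled KO 2 and all others gave 0. For partner and transport genes the same range was 0 to 24 higher and 0 to 2 lower, and DESeq2 called 3 higher. Over WT 1, WT 2, KO 1 and KO 3, the 5 higher Kcn calls became 7 with RLE factors, 50 with DESeq2, 46 with the exact test, 9 with limma-voom and 1 with a fold above 4 (Kcng3). The 3 lower calls became 4 with DESeq2 and the exact test, 3 with RLE factors and limma-voom, and 1 with a fold above 4 (Kcnn4). Leaving out 1 library gave 0 to 62 higher and 0 to 4 lower Kcn genes, and 0 to 24 higher and 0 to 2 lower partner genes. Each of these fits leaves 1 library in a group, and no share of all genes is given for them. Their counts therefore cannot be read as particular to the Kcn or partner genes. DESeq2 called 21 partner genes higher, the exact test 20 and limma-voom 2, where 16.6%, 16.0% and 2.94% of all genes were called higher. RLE factors gave 1 higher partner gene, for which no share of all genes is given. The cause of these differences was not tested.

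Signs turned for 2 named genes near 0. With single libraries left out, Kcnj10 ranged from -0.10 (without KO 1) to 0.12 among 6 libraries, with -0.06 without WT 2, and from -0.17 (without KO 1) to 0.27 among 4, with -0.06 without WT 2. Kcnj8 ranged from -0.018 (without WT 1) to 0.34 among 6. For single named genes, 392 alternatives of the 6-library fit kept sign and side of the threshold, 34 gained a call and 3 turned sign. For the 4-library fit 245 kept both, 67 gained a call, 16 lost it and 2 turned sign.

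With a replicate block on the labels' numbers in the 6-library fit, 0 Kcn genes were called higher and 0 lower. At an unadjusted p under 0.05 (quasi-likelihood test), the block gave 58 higher and 3 lower, against 35 and 2 without it. No share of all genes is given for the block. Same-numbered libraries deviated together in 2 of 3 pairs (correlations 0.549, 0.594 and -0.210), and KO 3 correlated best with WT 1 (0.541). Deviations from a mean of 3 libraries depend on each other, so these values cannot decide whether the numbers pair the samples. No paired analysis was possible for the 4 libraries because the groups share only replicate 1. Depth limits the lowest genes most, such as Kcng3 at 10 to 101 counts and Kcnn4 at 5 counts in KO 3.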

Other observations

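Kcne2 and Kcnj13, which are known from the epithelium of the choroid plexus, were read in 1 library above all others. These genes, and the further markers of that epithelium given here, were chosen after the values were seen. Kcne2 had 66 counts (3.14 CPM) in WT 1 and 2 to 5 counts in the other 5 libraries (0.114 to 0.258 CPM). Kcnj13 was at 5.23 CPM in WT 1 and at 0.672 to 2.81 CPM elsewhere. Ttr, the carrier of thyroid hormone that this epithelium secretes, was at 354 CPM in WT 1 and at 0.775 to 6.33 CPM elsewhere, and Kl was at 20.6 CPM against 1.13 to 3.82 CPM. The values of Kcne2 and Kcnj13 in the WT group thus rest on WT 1. For Kcnj13 the log2 fold change, KO over WT, was -0.25 (SE 0.93, adjusted p = 0.848, edgeR) with all 6 libraries and -0.74 (SE 1.06, adjusted p = 0.603, edgeR) with WT 1, WT 2, KO 1 and KO 3.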
